A study of Mus musculus with 65 samples.

Results

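Splicing factors and heterogeneous nuclear ribonucleoproteins (hnRNPs) were followed across single mouse cortical progenitors and their early progeny at 2 embryonic ages and after transplantation into a younger brain. The genes were taken by name, as every entry that begins with Srsf, Hnrnp, Sf3a, Sf3b, Snrp, Ptbp, Nova, Celf or Mbnl with the member number or letter that belongs to it, or that is Rbfox1 or Rbfox2. That rule found 65 of the 10407 genes in the tables, and it used no measured value. By role they were 9 SR proteins, 20 hnRNPs, 9 SF3a and SF3b subunits, 12 Sm and other snRNP proteins and 15 tissue-restricted regulators.

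The cells came from CD1 mice and were collected one by one for Patch-seq, in which a cell recorded with a patch pipette is also sequenced. One group of 19 cells, called E15 in E12 here, held progenitors taken at embryonic day 15 and transplanted into an embryonic day 12 brain. A second group of 26 cells was untransplanted and labelled with FlashTag at E15, and the last group of 20 cells was untransplanted and labelled at E12. FlashTag is a dye that marks cells dividing at the ventricular surface. The source label reads neuronal progenitors for every cell, both untransplanted groups are given as wild type, and no animal, litter or host is named. Each group therefore counted as 1 sample, cells were not treated as replicates, and no test between groups was made.

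Introns are removed from pre-mRNA by the spliceosome, which is built from small nuclear ribonucleoproteins: RNAs carried on a ring of Sm proteins and joined by particle-specific proteins. The SF3a and SF3b complexes belong to the U2 particle and hold it at the branch point. SR proteins bind exonic enhancers and mostly promote exon use, while hnRNPs coat nascent RNA and often oppose it. Ptbp, Nova, Celf, Mbnl and Rbfox proteins set alternative exons, and some of them are expressed in particular tissues. The role is named tissue-restricted regulators for these, but it also holds widely expressed members such as Celf1. In the developing brain the exchange of Ptbp1 for Ptbp2 and the onset of Nova and Rbfox proteins accompany neuronal differentiation.

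Depth differed widely, from 22358 to 3622411 reads per E15 in E12 cell, from 11449 to 4560871 per E15 cell and from 10928 to 1635767 per E12 cell. Levels are in CPM, a gene's reads divided by the reads in the 10407 genes and scaled to a common library total, either in a single cell or from the summed reads of a group. Among the 65 libraries, 16 held reads of more than 8000 genes: 5 of E15 in E12 cells, 11 of E15 cells and 0 of E12 cells. In the 11 such E15 libraries the summed neuron markers had a median of 6771 CPM, against 2206 CPM in the other 15 E15 libraries. The 15 listed apical progenitor markers had a median of 2759 CPM in the same 11 libraries and 21499 CPM in the other 15. Markers of ventral telencephalon (4482 and 664 CPM) and of microglia (3056 and 119 CPM) stood apart in the same way, so counts over the genes of a role are given with and without the 16 libraries. The kit reads the 3' end of transcripts, so the values are gene totals and hold no information on isoforms. Exact Poisson and binomial intervals cover counting error only, since no molecular identifiers were used and reads copied by PCR share a molecule.

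The 65 genes held 2.16% of all reads. Their median was 257.9 CPM over all cells, against 34.1 CPM for all genes, and the median member was read in 58 of 65 cells, against 32 for all genes. Hnrnpa2b1, Hnrnpk, Hnrnpdl, Hnrnpu, Sf3b2, Snrpd2 and Snrpe were read in every cell. The 9 members read in fewer than 32 cells were Celf3, Celf5, Celf6, Mbnl2, Nova1, Nova2, Ptbp3, Rbfox1 and Hnrnph2, all but the last tissue-restricted regulators. All 65 members passed the minimum of 5 CPM in either group in every comparison.

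The first comparison asks how splicing factor expression differs between the older and the younger progenitors and their progeny. Summed over the 65 genes, E15 cells held less splicing factor RNA as a share of their reads than E12 cells. A single cell held 7255, 20891 and 23614 CPM (lowest, median and highest) at E15 and 15644, 26039.5 and 38713 CPM at E12. All 26 E15 cells lay below the E12 median, and 18 of 20 E12 cells lay above the E15 median, although the ranges overlapped. The same count was 15 of 15 without the libraries above 8000 genes, and 24 of 24 after cells were thinned to 28614 reads, which left out 2 shallower cells of E15 in E12, 2 of E15 and 3 of E12. Within each of the 8 labelled pools the E15 sum was the lower one, by 0.053 to 0.53 on the log2 scale. A pool held at most 5 cells of a group. Pool H held 1 E12 cell, of 10928 reads, and pool E held 1 E15 in E12 cell, so pool counts are not replicates.

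Of the 65 genes, 39 had a lower summed level at E15 and 26 a higher one, and their median log2 ratio was -0.14 (all genes -0.025). Over all genes 51.0% were lower at E15, and 49.8% without the libraries above 8000 genes. The counts of each role below are to be read beside these shares. At least 2-fold lower were 7 members, against 20.3% of 10193 genes tested, and at least 2-fold higher were 9, against 25.3%. These are 10.8% lower and 13.8% higher, smaller shares than over all genes. Among the 2193 genes with at least 100 CPM over all cells, a class added after the data were seen and nearer to the members in level, 6.79% were at least 2-fold lower and 13.9% higher. Without the libraries above 8000 genes the counts were 6 lower and 6 higher, against 21.2% and 24% of all genes. The 7 lower members were Srsf10, Srsf7, Hnrnpl, Hnrnph2, Sf3b3, Mbnl2 and Nova1, and the 9 higher ones Rbfox1, Nova2, Celf3, Celf4, Celf6, Ptbp3, Hnrnpa0, Hnrnpa3 and Snrpn.

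**Figure D1:**
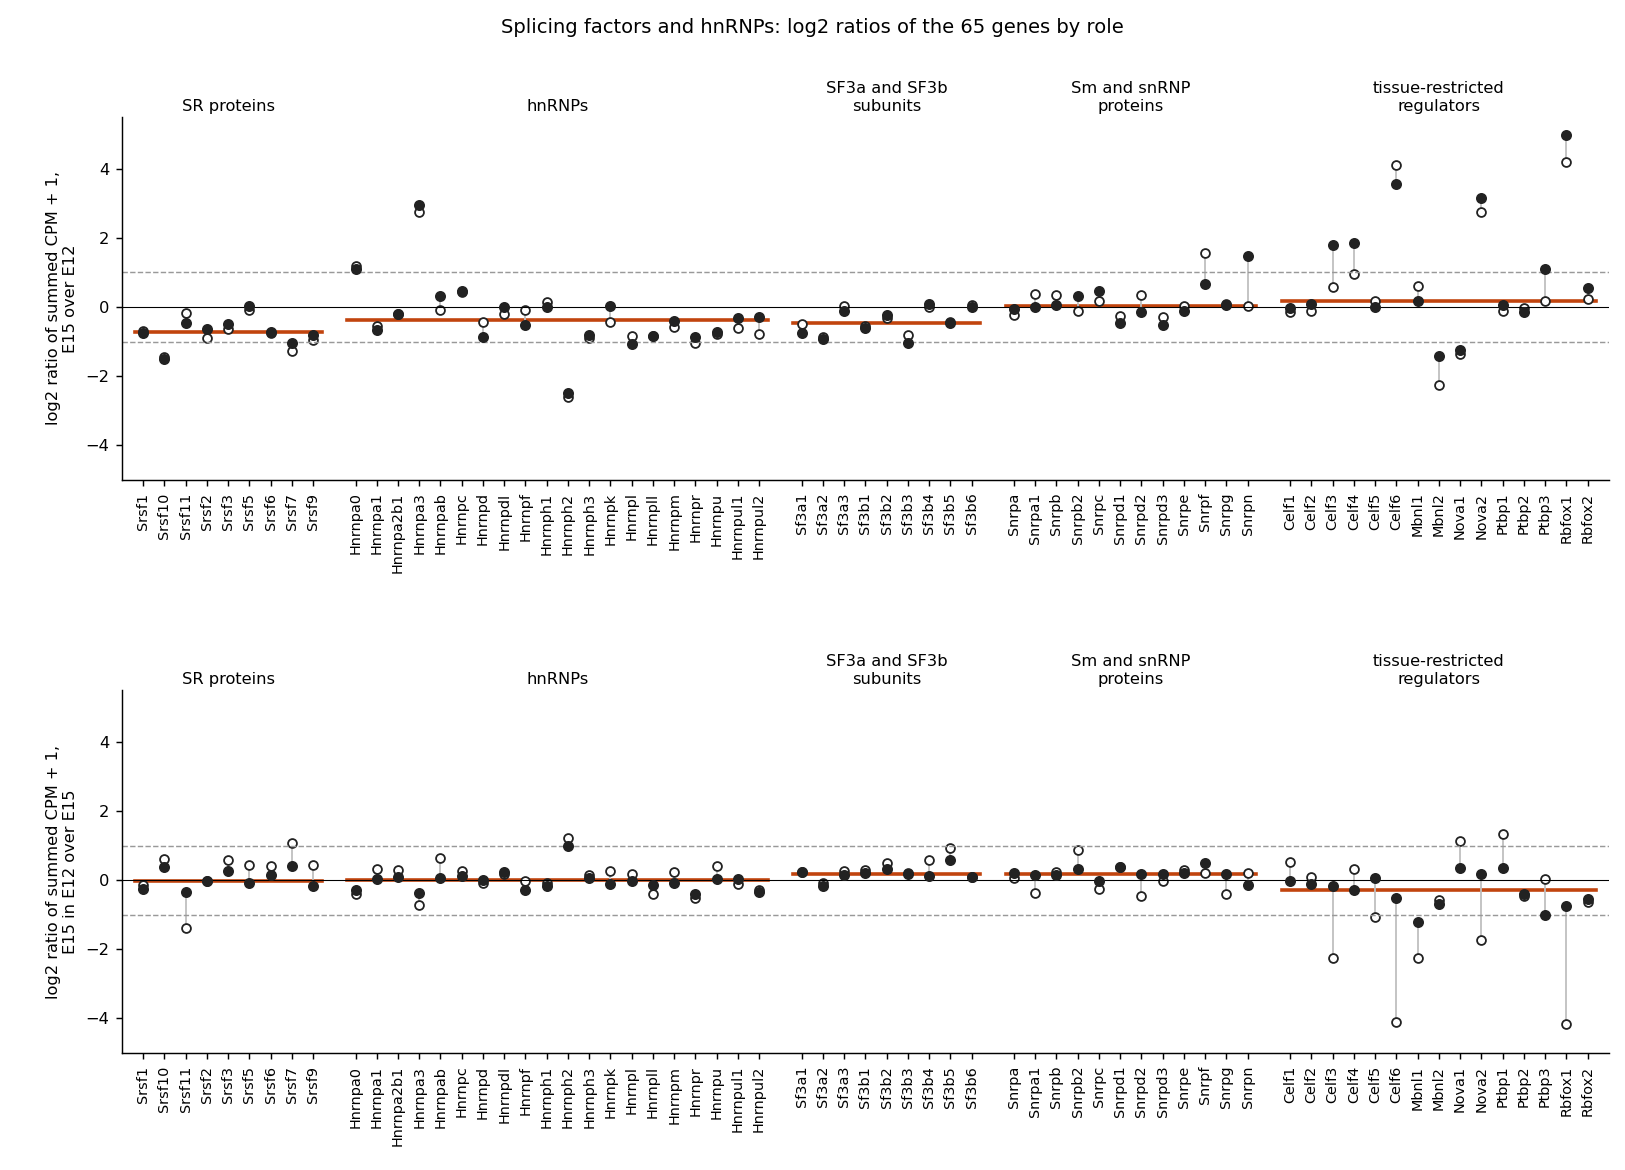
Log2 ratio of summed CPM (pseudocount 1 CPM) of each of the 65 genes, by role, for E15 over E12 (top) and for E15 in E12 over E15 (bottom). Filled points use all libraries, open points leave out the 16 libraries above 8000 genes, orange bars are the medians of filled points and dashed lines mark 2-fold; SR proteins other than Srsf5 lie below 0 in the top panel, and the long grey lines in the bottom panel are regulators such as Rbfox1 and Celf6, which had few or no reads in transplanted cells without those libraries.

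SR proteins were lower at E15 almost throughout. At E15, 8 of the 9 genes were lower than at E12 (median log2 ratio -0.74), and without the libraries above 8000 genes all 9 were lower, with the same median of -0.74. Among the same 2193 genes with at least 100 CPM, 47.3% were lower at E15 and the median was 0.041. The summed SR level of a cell was 689, 3598 and 5807 CPM (lowest, median, highest) at E15 and 1388, 6071 and 9027 CPM at E12. Every one of the 26 E15 cells lay below the E12 median, and 17 of 20 E12 cells lay above the E15 median. In 7 of 8 pools the E15 sum was lower, with log2 ratios from -0.998 to 0.0685 over the pools. Within E15 the 11 libraries above 8000 genes and the other 15 had medians of 3549 and 3647 CPM. Their neuron and progenitor marker medians differed severalfold, and the part of cell type in the SR sum was not tested.

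Srsf10, an SR-like protein that represses splicing when dephosphorylated, had the lowest log2 ratio of the 9. It was read at 0, 252 and 921 CPM (lowest, median, highest) per cell at E15 and at 0, 489 and 3082 CPM at E12. The ranges overlapped, yet 22 of 26 E15 cells lay below the E12 median. Summed, the level was 265 CPM at E15 and 755 CPM at E12, a ratio of 0.351 (95% counting interval 0.338 to 0.365) and a log2 ratio of -1.51. Leaving out any 1 cell kept the log2 ratio between -1.60 and -1.37, and 6 of 8 pools had the lower level at E15. Srsf7, which binds exonic enhancers and also takes part in mRNA export, was at 0, 439 and 824 CPM per cell at E15 and at 13.3, 817 and 2739 CPM at E12. Of the E15 cells, 25 of 26 lay below the E12 median, and all 8 pools had the lower level at E15. The summed levels were 452 CPM at E15 and 925 CPM at E12, a log2 ratio of -1.03. That is close to the 2-fold line, and leaving out E12 replicate 5 gave -0.94.

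The other SR genes followed at smaller sizes. Srsf9 had a log2 ratio of -0.81, Srsf1, the founding SR protein, one of -0.75 and Srsf6 one of -0.74. In each of these 3 genes, 24 of 26 E15 cells lay below the E12 median. Srsf1 was read at 6.25, 296 and 787 CPM per cell at E15 and at 0, 588 and 1593 CPM at E12, with 7 of 8 pools lower at E15. Leaving out E12 replicate 5, the deepest E12 cell with 33.1% of that group's reads, gave -0.44 for Srsf1 and -0.47 for Srsf9. Srsf3 was at 776 CPM at E15 and 1087 CPM at E12, a log2 ratio of -0.49. Srsf2, which also binds exonic enhancers, was at 78.0 CPM at E15 and 121 CPM at E12, a log2 ratio of -0.62 that was -0.29 without E12 replicate 9. Srsf5 was the exception, at 320 CPM at E15 and 315 CPM at E12, a log2 ratio of 0.023.

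The promoters of the 2 SR genes past 2-fold are shown because both genes differed in the same direction. Both sequences are the 250 bases before the RefSeq start on GRCm38.p6: chr4:135855821-135856070 on the plus strand and chr17:80207306-80207555 on the minus strand. Capitals mark matches, on either strand, to 4 motifs: the CCAAT box (CCAAT), the GC box (GGGCGG), the ETS core (CCGGAAG) and the TATA box (TATAAA).
Srsf10: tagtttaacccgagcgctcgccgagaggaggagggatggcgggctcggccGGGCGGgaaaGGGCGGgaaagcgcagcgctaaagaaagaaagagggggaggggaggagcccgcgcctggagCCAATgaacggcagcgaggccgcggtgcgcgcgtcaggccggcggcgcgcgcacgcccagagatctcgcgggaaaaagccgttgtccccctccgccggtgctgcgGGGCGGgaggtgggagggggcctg
Srsf7: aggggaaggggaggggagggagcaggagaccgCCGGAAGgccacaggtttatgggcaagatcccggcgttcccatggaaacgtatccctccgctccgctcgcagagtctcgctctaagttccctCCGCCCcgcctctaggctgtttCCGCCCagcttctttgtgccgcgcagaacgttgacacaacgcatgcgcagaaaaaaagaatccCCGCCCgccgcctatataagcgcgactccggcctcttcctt
The Srsf10 window held 3 GC boxes and 1 CCAAT box, and the Srsf7 window 3 GC boxes and 1 ETS core. A GC box stood in 8 of 9 SR promoters, against 61.27% of the 7955 promoters of genes in the expression tables and 32.74% of all 32851 promoters. It also stood in 13 of 18 hnRNP, 4 of 7 SF3, 4 of 10 Sm and snRNP and 5 of 12 regulator promoters. The median SR window was 65.2% G and C, against 60.4% for genes in the expression tables. A match is a run of letters and was not tied to binding of any factor.

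**Figure D2:**
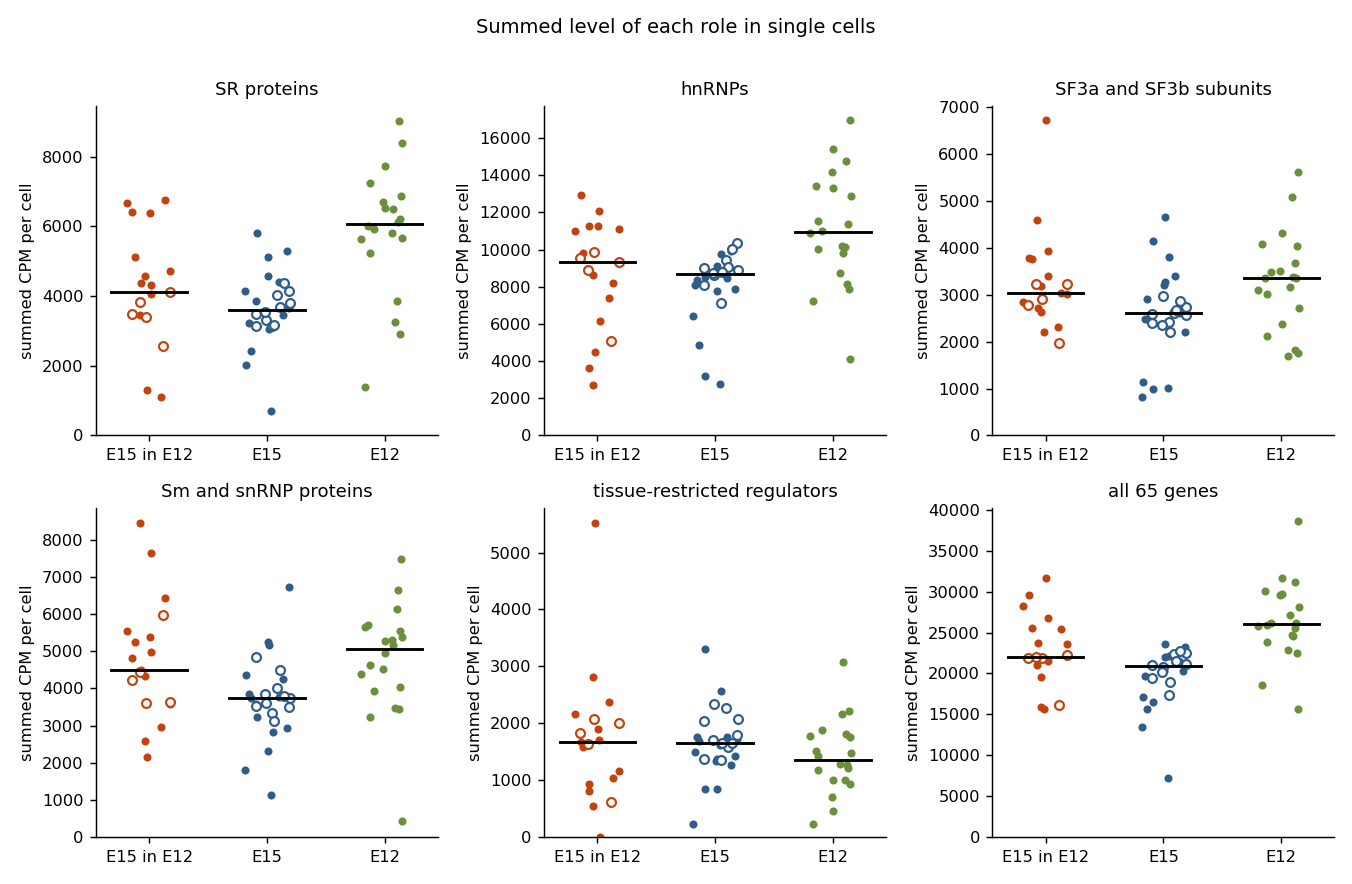
Summed CPM of each role in single cells (y axis), for E15 in E12, E15 and E12 cells (x axis). Each point is 1 cell, open points are libraries above 8000 genes and bars are medians; all E15 cells lie below the E12 median for SR proteins, hnRNPs and all 65 genes, with overlapping ranges.

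The hnRNPs were lower at E15 in 14 of 20 genes, against 51.0% of all genes, and the median of their log2 ratios was -0.36. Per cell, their sum was 2797, 8683 and 10381 CPM (lowest, median, highest) at E15 and 4117, 10946 and 17002 CPM at E12. All 26 E15 cells lay below the E12 median, and the E15 sum was lower in all 8 pools, by 0.092 to 0.59 on the log2 scale. Without the libraries above 8000 genes 16 of 20 genes were lower, with a median of -0.50.

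Hnrnpl (chr7:28808541-28822266, plus strand), which binds CA-rich RNA, was lower at E15 in every pool. Its level was 78.9, 354 and 1108 CPM per cell at E15 and 137, 883 and 2229.6 CPM at E12. Of the E15 cells, 25 of 26 lay below the E12 median, and all 8 pools gave that direction. The log2 ratio of summed CPM was -1.07, and -0.84 without the libraries above 8000 genes. Hnrnpu, a scaffold-attachment protein abundant in nuclei, was at 126, 1129 and 2344 CPM per cell at E15 and at 21.1, 1820 and 6686 CPM at E12. Its log2 ratio was -0.73, and 25 of 26 E15 cells lay below the E12 median. Hnrnpk, a poly(C)-binding protein, had a log2 ratio of 0.036, and Hnrnpa2b1, which binds nascent and transported RNAs, one of -0.20.

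The other hnRNPs past 2-fold were Hnrnph2, Hnrnpa3 and Hnrnpa0. Hnrnph2 was read in 16 of 26 E15 cells and 4 of 20 E12 cells, and 62.9% of its E12 reads came from 1 cell. Its log2 ratio was -2.49 with that cell and -1.25 without it. Hnrnpa3 was at 28.5 CPM at E15 and 2.83 CPM at E12, a log2 ratio of 2.95, with the higher level at E15 in 8 of 8 pools. With log2 ratios averaged within pools, however, 84.5% of all genes were higher at E15. The last 300 bases of its transcript matched 31 other genes over at least 100 bases at 95% identity or more, 29 of them pseudogenes, so its reads could be split among copies. Hnrnpa0 was at 213 CPM at E15 and 99.5 CPM at E12 (log2 ratio 1.09), but the mean over cells gave 0.054. Over all members, 12 of 65 had such a near-identical 3' end elsewhere, among them Hnrnpf with 7 and Hnrnpr, Hnrnph2, Hnrnpc, Ptbp1 and Nova1 with 1 each.

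**Figure D3:**
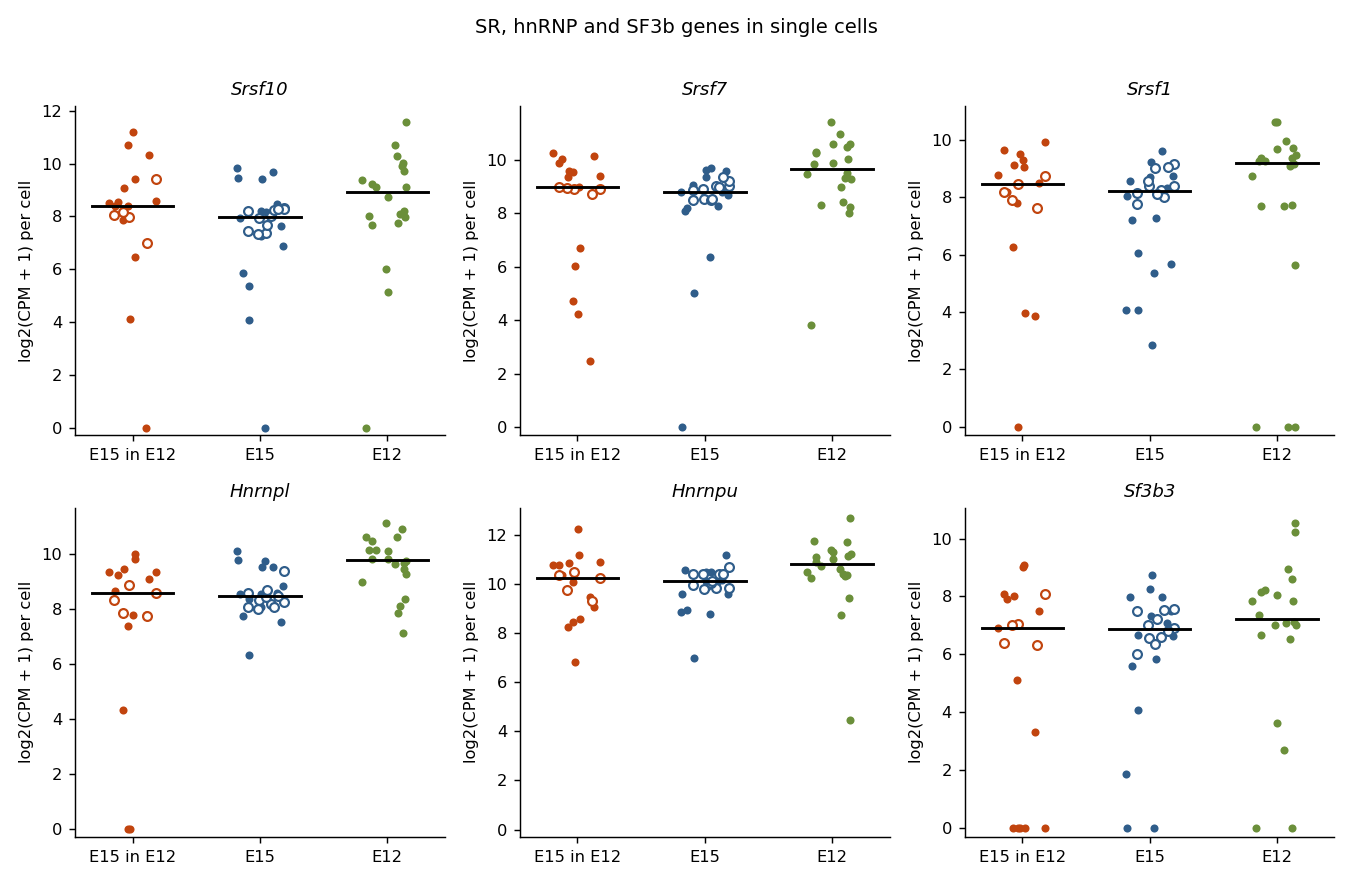
Level of 6 SR, hnRNP and SF3b genes in single cells as log2(CPM + 1) (y axis), for E15 in E12, E15 and E12 cells (x axis). Each point is 1 cell, open points are libraries above 8000 genes and bars are medians; for Srsf7, Hnrnpl and Hnrnpu 25 of 26 E15 cells lie below the E12 median.

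Subunits of SF3a and SF3b were lower at E15 in 8 of 9 genes, and the median of their log2 ratios was -0.45 (7 of 9 and -0.42 without the libraries above 8000 genes). Their sum per cell was 829, 2621 and 4649.8 CPM (lowest, median, highest) at E15 and 1687, 3354 and 5607 CPM at E12. In 22 of 26 E15 cells it lay below the E12 median, and it was lower at E15 in all 8 pools, by 0.083 to 0.70 on the log2 scale. The largest differences were in Sf3b3 and Sf3a2. Sf3b3, a scaffold of SF3b, was at 132 CPM at E15 and 272 CPM at E12, a log2 ratio of -1.04 (-0.80 without the libraries above 8000 genes), though only 17 of 26 E15 cells lay below the E12 median. Sf3a2 was at 63.9 CPM at E15 and 123 CPM at E12, a log2 ratio of -0.93, with 21 of 26 E15 cells below the E12 median and the pools split 4 to 4. Sf3b1, the subunit that clamps the branch point, was at 470.2 CPM at E15 and 712 CPM at E12, a log2 ratio of -0.60. Sf3b2 had a log2 ratio of -0.22, and Sf3b6, a protein that contacts the branch point adenosine, was at 539 CPM at E15 and 540.0 CPM at E12.

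The promoters of Sf3b3 (chr8:110846804-110847053, minus strand) and Sf3a2 (chr10:80798485-80798734, plus strand) are shown for a letter pattern that the role shares. Capitals mark the same 4 motifs.
Sf3b3: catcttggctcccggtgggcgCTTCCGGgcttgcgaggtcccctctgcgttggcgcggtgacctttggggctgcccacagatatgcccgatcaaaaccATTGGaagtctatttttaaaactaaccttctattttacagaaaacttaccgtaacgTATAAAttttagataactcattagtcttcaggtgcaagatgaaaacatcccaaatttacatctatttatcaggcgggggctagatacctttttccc
Sf3a2: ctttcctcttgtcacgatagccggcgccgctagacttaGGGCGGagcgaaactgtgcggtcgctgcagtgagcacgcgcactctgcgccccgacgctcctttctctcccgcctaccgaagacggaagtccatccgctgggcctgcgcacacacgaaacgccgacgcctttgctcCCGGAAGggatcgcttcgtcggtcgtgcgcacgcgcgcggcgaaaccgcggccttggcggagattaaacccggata
Of the 7 SF3 genes with a promoter in the RefSeq table, 6 held an ETS core, CCGGAAG or its reverse complement, in the 250 bases before the start. These were Sf3a1, Sf3a2, Sf3a3, Sf3b2, Sf3b3 and Sf3b6, while Sf3b1 held none. The same letters stood in 15.17% of promoters of genes in the expression tables and in 6.907% of all promoters. By role, an ETS core was in 3 of 9 SR promoters, 2 of 18 hnRNP promoters, 3 of 10 Sm and snRNP promoters and 0 of 12 regulator promoters. In all, 56 of the 65 members had a promoter in the table.

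Sm and snRNP proteins showed no common direction by gene: 7 of 12 were higher and 5 lower at E15, and the median of their log2 ratios was 0.032 (8 higher and 4 lower, 0.063, without the libraries above 8000 genes). Per cell, however, their sum was 1135, 3749 and 6737 CPM (lowest, median, highest) at E15 and 436, 5053 and 7477 CPM at E12. In 23 of 26 E15 cells it lay below the E12 median, and 6 of 8 pools had the lower sum at E15. Summed reads weight deep cells more than the median over cells does. Snrpe, a ring subunit, was at 808 CPM at E15 and 884 CPM at E12 (log2 ratio -0.13), with 21 of 26 E15 cells below the E12 median, and Snrpb, another ring subunit, at 610.2 CPM at E15 and 585 CPM at E12 (0.061).

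Snrpn, an imprinted relative of Snrpb that is expressed mainly in brain, was the 1 member of this role past 2-fold. Its level per cell was 0, 73.4 and 279 CPM at E15 and 0, 31.97 and 488 CPM at E12. Summed, it was at 160.1 CPM at E15 and 57.3 CPM at E12, a log2 ratio of 1.47. The libraries above 8000 genes held 89.3% of its E15 reads, and without them the log2 ratio was 0.0195. Another gene of the same strand lies over the last 1000 bases of Snrpn, so its reads could not be assigned to Snrpn alone.

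Among the tissue-restricted regulators 11 of 15 were higher at E15, and the median of the 15 log2 ratios was 0.16. Of the 15, 6 were at least 2-fold higher and 2 at least 2-fold lower, against the 25.3% and 20.3% of all genes. Leaving out the libraries above 8000 genes gave 9 of 15 higher (median 0.17), with 3 at least 2-fold higher and 2 lower, against 24% and 21.2% of all genes. Rbfox1, which promotes neuronal exons, had the highest log2 ratio of the 65 genes. Its level per cell was 0, 0.175 and 211 CPM (lowest, median, highest) at E15 and 0, 0 and 26.7 CPM at E12. Summed, it was at 50.2 CPM at E15 and at 0.607 CPM at E12, where it had 3 reads in all, a ratio of 82.6 (95% counting interval 28.2 to 401) and a log2 ratio of 4.99. It was read in 13 of 26 E15 cells and 2 of 20 E12 cells. All 11 E15 libraries above 8000 genes held a read, against 2 of the other 15. The 11 libraries held 83.3% of the E15 reads of Rbfox1. Of the 2 other cells, replicate 10 was at 211 CPM and replicate 2 at 0.918 CPM, so the remaining reads came almost wholly from 1 cell. After thinning, 8 of 24 E15 cells and 2 of 17 E12 cells kept a read.

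Nova2, whose protein sets alternative exons in neurons, was found in more cells. Its level per cell was 0, 13.4 and 68.7 CPM (lowest, median, highest) at E15 and 0, 0 and 122 CPM at E12. It was read in 18 of 26 E15 cells, 7 of them outside the libraries above 8000 genes, and in 1 of 20 E12 cells. Summed, it was at 22.4 CPM at E15 and 1.62 CPM at E12, from 8 reads at E12, a ratio of 13.8 (95% counting interval 6.99 to 32.1) and a log2 ratio of 3.16. After thinning, 11 of 24 E15 cells and 1 of 17 E12 cells kept a read. All the E12 reads came from 1 cell.

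Sequences before the starts of these 2 regulators are shown beside those of the SR and SF3 genes. For Rbfox1 the first of 2 promoters in the table is given, chr16:5884543-5884792 on the plus strand, and for Nova2 chr7:18925638-18925887 on the plus strand. Capitals mark the same 4 motifs.
Rbfox1: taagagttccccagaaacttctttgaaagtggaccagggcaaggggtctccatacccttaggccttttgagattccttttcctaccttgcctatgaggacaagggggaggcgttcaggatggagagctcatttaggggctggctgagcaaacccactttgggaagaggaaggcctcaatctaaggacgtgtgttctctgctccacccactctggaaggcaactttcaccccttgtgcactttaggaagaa
Nova2: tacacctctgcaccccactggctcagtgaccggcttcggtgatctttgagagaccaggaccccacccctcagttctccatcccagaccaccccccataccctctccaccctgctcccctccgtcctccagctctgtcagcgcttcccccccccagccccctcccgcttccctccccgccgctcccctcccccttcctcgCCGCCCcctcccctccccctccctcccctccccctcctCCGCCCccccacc
The Rbfox1 window was 51.2% G and C with 2 CpG pairs, and the Nova2 window 71.2% with 10. The Srsf10 window was 72.0% with 33, and the Sf3a2 window 65.2% with 37. The median promoter held 10.5 CpG pairs among regulators, 25 among SR proteins and 17 among genes in the expression tables.

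The Celf proteins include neuronal and widespread members. Celf4, a neuronal member, was at 250.03 CPM at E15 and 69.0 CPM at E12, a log2 ratio of 1.84. Per cell it was at 0, 220.4 and 415 CPM at E15 and 0, 1.61 and 570.2 CPM at E12, with 22 of 26 E15 cells above the E12 median. That median lay between cells at 0 and the lowest E12 cell with a read, at 3.22 CPM. The count is therefore of E15 cells with any read, and median depth was 998630 reads at E15 and 148824 at E12. One E12 cell, replicate 19, held 68.6% of the E12 reads, and without it the log2 ratio was 3.35. It was 0.97 without the libraries above 8000 genes. Celf3 was at 24.1 CPM at E15 and 6.27 CPM at E12 (log2 ratio 1.79, and 0.58 without the libraries above 8000 genes). Celf6 had 407 reads at E15 and 0 of the 4942302 reads at E12, so it was at least 17.9-fold higher against a floor of 3 counts over the group. Celf1, which is expressed in most tissues, had a log2 ratio of -0.0196, and Celf2, which is abundant in the brain, one of 0.10.

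Ptbp1 and its neural relative Ptbp2 were within 2-fold. Ptbp2 was at 2.64, 256 and 1169 CPM per cell at E15 and at 0, 295 and 964 CPM at E12, a log2 ratio of -0.14. Ptbp1 was at 7.90 CPM at E15 and 7.49 CPM at E12, from 37 reads at E12, with a ratio of 1.05 (95% counting interval 0.748 to 1.53). Its log2 ratio of 0.068 was 0.78 without E12 replicate 17 and -0.30 without E12 replicate 5. Ptbp3 was 2-fold higher on summed reads (log2 ratio 1.11) but 0.17 without the libraries above 8000 genes. Rbfox2, which is more widely expressed than Rbfox1, was at 159.5 CPM at E15 and 108 CPM at E12, a log2 ratio of 0.56 that was 1.14 without E12 replicate 5.

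The Mbnl proteins act in postnatal switches of exon use. Mbnl2 (chr14:120275669-120431697, plus strand) was at 21.3 CPM at E15 and 58.3 CPM at E12, a log2 ratio of -1.41. Yet it was read in 15 of 26 E15 cells and 7 of 20 E12 cells, and 58.7% of its E12 reads came from 1 cell, without which the log2 ratio was -0.27. Mbnl1 was at 67.9 CPM at E15 and 60.5 CPM at E12, a log2 ratio of 0.16. Nova1 had 74 reads at E12 in 3 cells, 62.2% of them in 1 cell, and its log2 ratio was -1.23 with that cell and -0.14 without it.

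**Figure D4:**
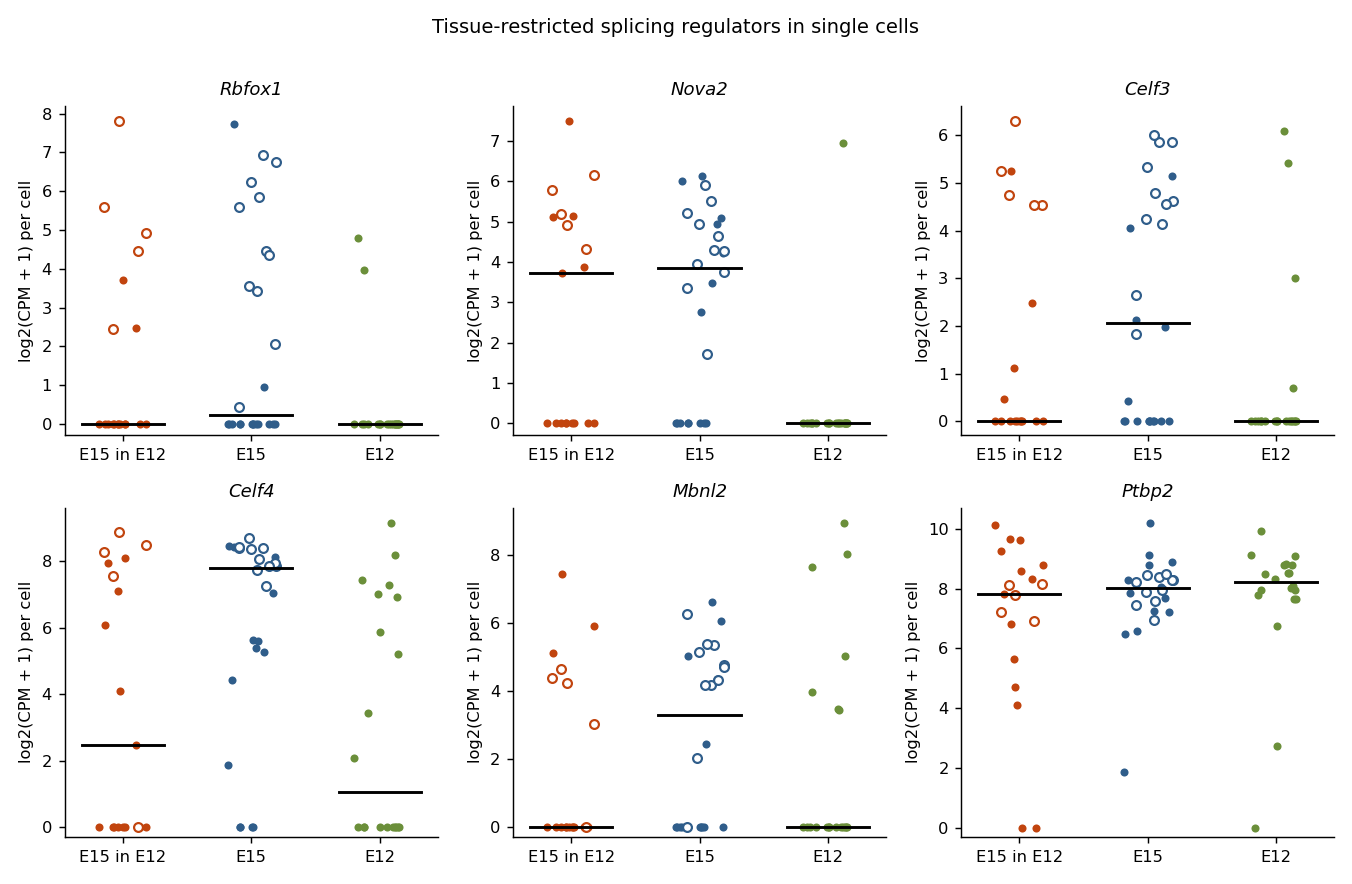
Level of 6 tissue-restricted regulators in single cells as log2(CPM + 1) (y axis), for E15 in E12, E15 and E12 cells (x axis). Each point is 1 cell, open points are libraries above 8000 genes and bars are medians; Rbfox1 was read in 7 of 19 E15 in E12 cells, 13 of 26 E15 cells and 2 of 20 E12 cells.

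Neuron markers were higher at E15 as well. The 15 listed neuron markers, all of them read in every group, summed to 519, 4547 and 11658 CPM per cell (lowest, median, highest) at E15 and to 57.6, 955 and 9902 CPM at E12. Over the 65 cells the Spearman correlation with the neuron marker sum was 0.69 for Rbfox1, 0.634 for Celf3, 0.585 for Celf6, 0.545 for Celf4, 0.51 for Nova2 and -0.544 for the SR sum. These points share libraries, pools and depth, and they pool groups whose medians of neuron markers and of the SR sum differ. No correlation within a group is given. With read depth the correlation was 0.575 for Rbfox1 and -0.30 for the SR sum. For Celf3, Celf6, Celf4 and Nova2 it was 0.694, 0.573, 0.503 and 0.399. Over the 49 libraries with at most 8000 genes the correlation with neuron markers was 0.283 for Rbfox1 and -0.435 for the SR sum. It was 0.358 for Celf3, 0.305 for Celf6, 0.24 for Celf4 and 0.219 for Nova2. Within those libraries the 15 E15 cells had a progenitor marker median of 21499 CPM, against 9604 CPM at E12, and a neuron marker median of 2206 CPM, against 955 CPM at E12. Their SR sum was below the E12 median in 15 of 15. The part of neuron content in the E15 values was not tested.

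**Figure D5:**
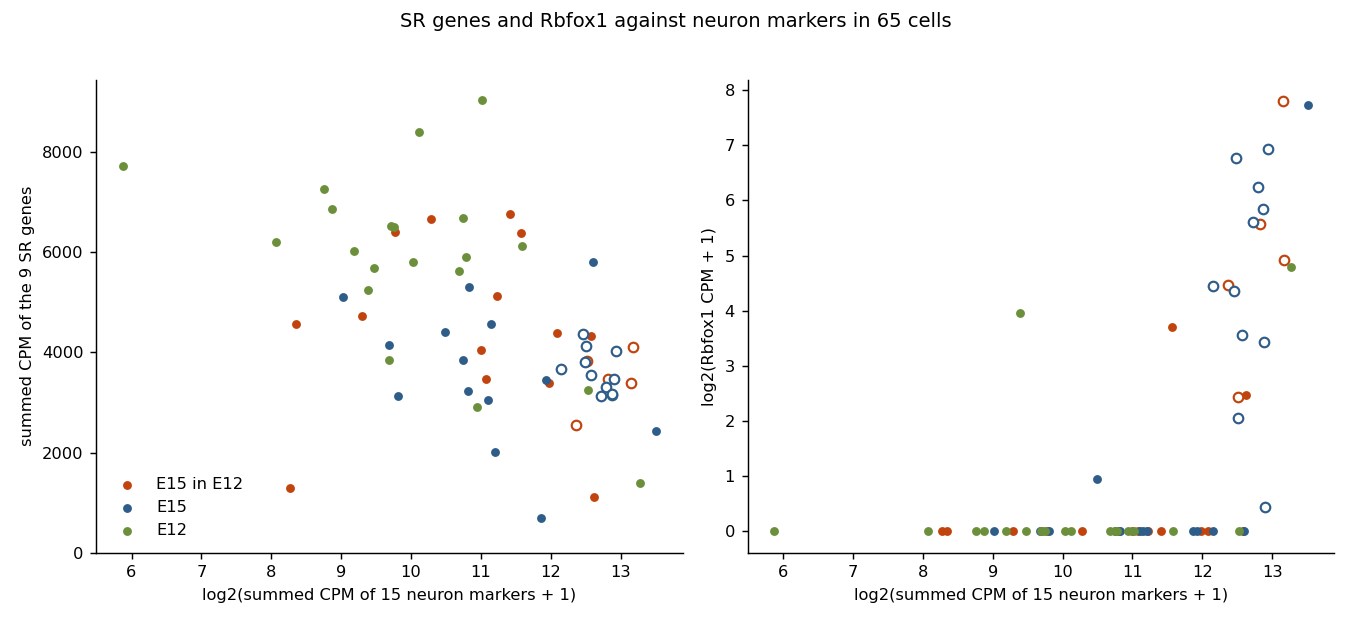
Summed CPM of the 9 SR genes (left, y axis) and log2(CPM + 1) of Rbfox1 (right, y axis) against log2 of the summed CPM of 15 neuron markers plus 1 (x axes) in 65 cells, coloured by group. Open points are libraries above 8000 genes. Spearman correlations over the cells of all groups together were -0.544 for the SR sum and 0.69 for Rbfox1.

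The second comparison asks whether E15 progenitors that spent time in an E12 brain differ from E15 cells that stayed in place. Of the 65 genes 36 were higher and 29 lower in E15 in E12 cells, with a median log2 ratio of 0.050 (all genes -0.079). Over all genes 55.6% were lower in E15 in E12 cells, and 54.0% without the libraries above 8000 genes. The role counts of this comparison are to be read beside these shares. None was at least 2-fold higher, against 4.71% of 10163 genes tested, and 2 were at least 2-fold lower, Mbnl1 and Ptbp3, against 11.8%. With each group as 1 sample there is no test behind the count of 0. Without the libraries above 8000 genes 4 members were at least 2-fold higher, against 18.6%, and 7 lower, against 27.8%.

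The summed level of all 65 genes per cell was 15682, 22070.1 and 31703 CPM (lowest, median, highest) in E15 in E12 cells and 7255, 20891 and 23614 CPM in E15 cells. Of the transplanted cells, 14 of 19 lay above the E15 median, and in 6 of 7 shared pools their sum was the higher one, with log2 ratios from -0.073 to 0.72. The ranges overlapped. SF3a and SF3b subunits were higher in 8 of 9 genes (median log2 ratio 0.19, and again 8 of 9 with 0.28 without the libraries above 8000 genes), and 16 of 19 transplanted cells had a sum above the E15 median. Sf3b2 was at 64.9, 988 and 2127 CPM per cell in E15 in E12 cells and at 18.5, 714 and 1973 CPM in E15 cells. Above the E15 median lay 17 of 19 transplanted cells, and the log2 ratio of summed CPM was 0.34, with 6 of 7 pools higher.

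Sm and snRNP proteins were higher in 10 of 12 genes, with a median log2 ratio of 0.19. Leaving out the libraries above 8000 genes gave 7 of 12 and 0.13. Snrpe was at 48.7, 1076 and 2318 CPM per cell in E15 in E12 cells and at 78.9, 682 and 1950.2 CPM in E15 cells, a log2 ratio of 0.20 on summed reads. In 13 of 19 transplanted cells it lay above the E15 median, but only 3 of 7 pools had the higher level. SR proteins were split, with 4 genes higher and 5 lower and a median of -0.025, but 6 of 9 were higher, with a median of 0.43, when the libraries above 8000 genes were left out. Their sum per cell was 1116, 4108 and 6754 CPM in E15 in E12 cells and 689, 3598 and 5807 CPM in E15 cells, with 12 of 19 transplanted cells above the E15 median. Srsf10 had a log2 ratio of 0.37 and Srsf7 one of 0.40, and in each 13 of 19 transplanted cells lay above the E15 median. The hnRNPs were split 10 to 10, with a median of -0.0072 (11 higher and 9 lower, 0.17, without those libraries), and Hnrnpr had the lowest log2 ratio among the named ones, -0.40.

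Among regulators 11 of 15 were lower in transplanted cells, with a median log2 ratio of -0.29, and 2 were at least 2-fold lower. Over all genes 55.6% were lower and 11.8% at least 2-fold lower. With the libraries above 8000 genes left out, 9 of 15 were lower (median -0.57), 6 of them at least 2-fold, and 2 were at least 2-fold higher. The shares of all genes there were 54.0% lower, 27.8% at least 2-fold lower and 18.6% at least 2-fold higher. Mbnl1 was at 0, 32.9 and 476 CPM per cell in E15 in E12 cells and at 0, 47.5 and 1337 CPM in E15 cells. Its summed log2 ratio was -1.22, with the lower level in 7 of 7 pools. With log2 ratios averaged within pools, however, 77.1% of all genes were lower in E15 in E12 cells. Leaving out transplanted replicate 19 gave -0.90 and leaving out E15 replicate 13 gave -0.93, and thinning the cells to 1 depth gave 0.18, which turns the direction. Ptbp3 was at 19.03 CPM in E15 in E12 cells and 39.2 CPM in E15 cells, a log2 ratio of -1.005 that was 0.0415 without the libraries above 8000 genes. Rbfox1 was at 29.7 CPM in E15 in E12 cells and 50.2 CPM in E15 cells, a log2 ratio of -0.74. One transplanted cell held 69.8% of those reads, and without it the log2 ratio was -2.23. Rbfox1 was read in 7 of 19 transplanted cells, namely 5 of the 5 libraries above 8000 genes and 2 of the other 14.

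Nova2 was read in 10 of 19 E15 in E12 cells, at 25.2 CPM summed, and in 18 of 26 E15 cells, at 22.4 CPM, a log2 ratio of 0.17. Without the libraries above 8000 genes Nova2 was at 4.31 CPM in E15 in E12 cells and 16.8 CPM in E15 cells. Transplanted replicate 19, which held 55.7% of the E15 in E12 reads there, had 0 reads of Nova2. Among the same cells replicate 16 was at 178 CPM, so the summed value rests on how depth was spread over cells. Celf6 was read in 4 of 19 transplanted cells, all of them libraries above 8000 genes. Celf4 was at 0, 4.55 and 474 CPM per cell in E15 in E12 cells and at 0, 220.4 and 415 CPM in E15 cells, and 14 of 19 transplanted cells lay below the E15 median. Its summed log2 ratio was -0.29, with the lower level in 3 of 7 pools and the higher in 4. Ptbp2 (log2 ratio -0.38) and Rbfox2 (-0.55) were within 2-fold. Neuron markers summed to 308, 3039.7 and 9228 CPM per cell in E15 in E12 cells and to 519, 4547 and 11658 CPM in E15 cells, and their part in the regulators' values was not tested. Erythroid markers, of which 5 of 9 were in the tables, had medians of 4698 CPM in E15 in E12 cells, 116 CPM in E15 cells and 2946 CPM in E12 cells, and their part in the shares of reads was not tested.

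The third comparison sets the transplanted cells against cells of the host's age. It shares the transplanted cells with the second comparison and the E12 cells with the first, and those 2 share the E15 cells, so the 3 sets of values are not independent. Of the 65 genes 29 were higher and 36 lower in E15 in E12 cells, with a median log2 ratio of -0.0645 (all genes -0.088). Over all genes 52.8% were lower in E15 in E12 cells, and 54.3% without the libraries above 8000 genes. The role counts of this comparison are to be read beside these shares. At least 2-fold lower were 7 members, against 24.7% of 9931 genes, and at least 2-fold higher were 8, against 22.9%. Without the libraries above 8000 genes the counts were 8 lower and 5 higher, against 29.5% and 22.2%.

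SR proteins were lower in all 9 genes, with a median log2 ratio of -0.65, and in 8 of 9 with -0.51 when the libraries above 8000 genes were left out. Their sum per cell was 1116, 4108 and 6754 CPM in E15 in E12 cells and 1388, 6071 and 9027 CPM in E12 cells. Of the transplanted cells 15 of 19 lay below the E12 median, and 5 of 7 pools had the lower sum. Side by side, the median SR sum was 4108 CPM in E15 in E12 cells, 3598 CPM in E15 cells and 6071 CPM in E12 cells. Srsf10 was at 344 CPM in E15 in E12 cells and 755 CPM in E12 cells, a log2 ratio of -1.13 on sums but -0.29 on the mean over cells. Srsf7 had a log2 ratio of -0.63, Srsf1 one of -0.996 and Srsf9 one of -0.97.

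The hnRNPs were lower in 15 of 20 genes, with a median of -0.57 (14 of 20 and -0.28 without those libraries), and their sum was lower in 5 of 7 pools. Hnrnpr (chr4:136310942-136359447, plus strand) was at 0, 133 and 351 CPM per cell in E15 in E12 cells and at 0, 406 and 1127 CPM in E12 cells. All 19 transplanted cells lay below the E12 median, and 13 of 20 E12 cells lay above the transplanted median. The log2 ratio of summed CPM was -1.26, and 5 of 7 pools had the lower level in transplanted cells. Leaving out E12 replicate 5 gave -0.80. Against E15 cells, 14 of 19 transplanted cells lay below the median. Hnrnpl was also lower, with a log2 ratio of -1.09 on sums, the lower level in 7 of 7 pools and 17 of 19 cells below the E12 median.

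By gene, SF3 subunits were higher in 5 of 9 (median log2 ratio 0.056) and Sm and snRNP proteins in 10 of 12 (0.19). With the libraries above 8000 genes left out these were 5 of 9 (0.16) and 7 of 12 (0.087). Regulators were higher in 9 of 15 (0.084), and in 6 of 15, with 8 lower (-0.013), without those libraries. Per cell, the SF3 sum was below the E12 median in 13 of 19 transplanted cells and lower in 6 of 7 pools. Sf3a2 was past 2-fold, at 56.3 CPM in E15 in E12 cells and 123 CPM in E12 cells, a log2 ratio of -1.11 (-0.95 without the libraries above 8000 genes). Nova2 was read in 10 of 19 E15 in E12 cells and 1 of 20 E12 cells, with a log2 ratio of 3.33 on sums and 1.02 without the libraries above 8000 genes. Rbfox1 had a log2 ratio of 4.26, and 2.76 without transplanted replicate 6, but outside those libraries it was at 0.647 CPM in E15 in E12 cells, against 0.607 CPM in E12 cells. Mbnl2 was at 12.8 CPM in E15 in E12 cells and 58.3 CPM in E12 cells, a log2 ratio of -2.10, and without 1 E12 cell it was -0.96.

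Other genes of the splicing machinery were set beside the 65. Of 73 listed, 72 were in the tables and all 72 passed the minimum. Over all genes 51.0% were lower at E15 than at E12 (median -0.025), and 49.8% without the libraries above 8000 genes. At E15 52 were lower and 20 higher than at E12 (median log2 ratio -0.35), and 9 were at least 2-fold lower and 4 higher, against the 20.3% and 25.3% of all genes. Leaving out the libraries above 8000 genes gave 49 lower and 23 higher (median -0.26), with 10 at least 2-fold lower and 2 higher, against 21.2% and 24% of all genes. The largest that met the naming rule were Ddx46, a helicase of the U2 particle, at 149.7 CPM at E15 and 461 CPM at E12, and Clk4, a kinase of SR proteins, at 148 CPM at E15 and 431 CPM at E12. Prpf3, a protein of the tri-snRNP, was at 32.2 CPM at E15 and 81.3 CPM at E12. Their log2 ratios were -1.62 for Ddx46, -1.54 for Clk4 and -1.31 for Prpf3. Leaving out E12 replicate 9 gave -0.65 for Prpf3.

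In transplanted cells 41 of the 72 were higher and 31 lower than in E15 cells, with a median of 0.064, and 3 were at least 2-fold higher and 0 lower, against the 4.71% and 11.8% of all genes. With the libraries above 8000 genes left out, 38 were higher and 34 lower (median 0.024), with 5 at least 2-fold higher and 4 lower, against 18.6% and 27.8%. Over all genes 44.4% were higher in E15 in E12 cells (median -0.079), and 45.7% (median -0.12) without those libraries. Prpf3 was at 76.2 CPM in E15 in E12 cells and 32.2 CPM in E15 cells, a log2 ratio of 1.22. Leaving out transplanted replicate 18 gave 0.77, and leaving out pool A gave 0.14. Against E12 cells 50 of 72 were lower in transplanted cells (69.4%, median -0.20), against 52.8% of all genes (median -0.088). Without the libraries above 8000 genes 40 of 72 were lower (55.6%, median -0.165), against 54.3% of all genes (median -0.156). With all libraries 6 were at least 2-fold higher and 10 lower, against 22.9% and 24.7% of all genes. Without those libraries the counts were 5 higher and 11 lower, against 22.2% and 29.5%. Ddx46 (log2 ratio -1.52) and Clk4 (-1.37) were again lower, while Bud31 (1.23) and Prpf38b (1.04), both spliceosomal proteins, were higher. Without transplanted replicate 19 the log2 ratio was 0.99 for Bud31 and 0.80 for Prpf38b. Leaving out E12 replicate 5 gave 0.59 for Prpf38b. Bud31 fell to 0.63 without pool A, and Prpf38b to 0.35 without pool E.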

How the data were processed

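Single cells were sequenced from their 3' ends with SMART-Seq v4 3' DE and Nextera XT kits, per the labels' protocols. STAR, HTSeq and the mm10 build are named in the submitters' processing notes, without versions, and the later steps are not given in the sources used here. The deposited values are on a log10 scale, as read from the values themselves: log10 of 1 plus scaled counts per cell, with each gene's mean and 2 further directions over cells removed. Read counts were recovered from these residuals for all 10407 genes, 9838 from the cells at 0 and 569 by a search for whole numbers, and all 356667 non-zero values came within 0.01 of a whole number. Of the 65 members, 35 were recovered the first way and 30 the second. The search accepted only whole numbers, so for the genes recovered by it that closeness was set in advance. The steps were tested on simulated data drawn around the recovered counts.

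Levels are CPM of summed or single-cell reads. Log2 ratios used a pseudocount of 1 CPM, genes needed 5 CPM in either group, and 2-fold was the size counted. The design foresaw read counts, so the recovered reads were used. Cells were grouped by the labels. Pools A to H come from the labels, which do not say what a pool is, and none of the transplanted cells is in pool F. Genes were named when they had at least 20 CPM, a read in 30% of cells and 2-fold in 1 direction on sums, cell means and sums without libraries above 8000 genes, or were among the 2 highest of a role or on a fixed list; others were chosen after their values were seen. The members and lists were chosen with earlier results of these data known. Promoters are from RefSeq (GRCm38.p6) and positions from GENCODE vM21. The scripts ran on Python 3.11.15 with Matplotlib 3.10.9 for figures, Numba 0.67.0 for the search, pandas 2.3.3 for tables, and NumPy 2.4.6 with SciPy 1.17.1 for the numerical work.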

Additional observations from a re-analysis of the deposited data

How the results depend on the processing

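Alternative settings, including those with 1 cell or 1 pool left out, gave 5559 values of named genes or role medians. They also gave 570 values over all 65 members, of which 88 moved. Of the 5559, 22 turned direction and 20 moved beyond their limits. All 22 were of genes at least 2-fold apart on summed CPM of all libraries. Sign changes in genes nearer to 0 were not counted among them. Ptbp1 for E15 over E12, 0.068 on summed CPM, ranged from -0.49 to 0.98 with no cell or pool left out. Averaging log2 ratios within pools moved the median of all genes to 1.33 for E15 over E12, -0.63 for E15 in E12 over E15 and 0.80 for E15 in E12 over E12, and the values under it are to be read against that shift. It gave 18 members higher and 1 lower for E15 over E12 (all genes 59.6% and 3.28%), 12 lower and a median of -0.21 for E15 in E12 over E15 (all genes 32.2% lower), and 17 higher for E15 in E12 over E12 (all genes 44.5%). Under that setting E15 over E12 became 1.15 for Clk4, 0.94 for Ddx46, 0.42 for Mbnl2 and 1.03 for Nova1, all below the median of all genes, E15 in E12 over E15 became -1.13 for Prpf3, and E15 in E12 over E12 became 0.97 for Clk4, 1.10 for Ddx46, 0.79 for Hnrnpr, 1.46 for Mbnl1 and 0.023 for Mbnl2. The deposited log10 values gave 0 higher and 1 lower for E15 over E12 (all genes 2.87% and 1.06%), 1 higher for E15 in E12 over E15 (all genes 0.767%), and 0 higher and 3 lower for E15 in E12 over E12 (all genes 1.601% and 1.95%). With them E15 over E12 was 0.038 for Mbnl2, 0.092 for Nova1, -0.041 for Rbfox1 and -0.55 for Snrpn, and E15 in E12 over E12 was -1.09 for Celf4, -0.29 for Rbfox1 and -0.22 for Snrpn. Thinning gave 0.071 for Nova1 (E15 over E12), 0.18 for Mbnl1, a median of 0.088, 2 higher and 6 lower (E15 in E12 over E15), and 4 higher (E15 in E12 over E12). Mean CPM per cell gave a median of 0.16 and 1 higher for E15 in E12 over E15, and 4 higher for E15 in E12 over E12. Without the libraries above 8000 genes, E15 in E12 over E15 had a median of 0.17 with 4 higher and 7 lower, and E15 in E12 over E12 had 5 higher. Mean CPM without those libraries, a setting added after the data were seen, gave 11 lower and -0.97 for Snrpn (E15 over E12), a median of 0.25 with 7 higher and 8 lower (E15 in E12 over E15), and 2 higher, -0.52 for Celf4 and -0.49 for Rbfox1 (E15 in E12 over E12). For E15 in E12 over E15, median-of-ratios scaling gave a median of 0.13, 1 higher and 1 lower, totals without ribosomal and mitochondrial genes 1 higher, a pseudocount of 0.1 CPM 1 higher and one of 5 CPM 1 lower. Leaving out 1 cell or 1 pool gave, for E15 over E12, medians from -0.28 to -0.0996, 8 to 10 higher and 4 to 10 lower; for E15 in E12 over E15, medians from -0.0215 to 0.11, 0 to 1 higher and 0 to 3 lower; and for E15 in E12 over E12, medians from -0.26 to -0.012, 4 to 9 higher and 5 to 11 lower. The SR median for E15 over E12 stayed between -0.91 and -0.46, and the regulators' between -0.085 and 0.80. No paired analysis was possible because the replicate numbers used here only name cells; the pool letters that groups share do not pair cells, and the averages within pools above use them. Depth limits the values without the libraries above 8000 genes, where 1 cell holds 55.7% of the 4639870 E15 in E12 reads, and those of E12, where 1 cell holds 33.1% of 4942302. The cause of these moves was not tested.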
